A study of Mus musculus with 6 samples.

Results

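Long CpG islands (CGIs) were followed here from their edges to their centres in the livers of Mdr2-KO and Mdr2-/+ mice. A long island was defined as a run of 15 or more array probes on chromosomes 1 to 19 whose start positions lay 500 bp or less apart. This rule used probe positions only and found 371 long islands among the 13826 runs of 3 or more probes on the array. The first 3 and the last 3 probes of each run were called the edge, and the remaining probes were called the centre. A further 10 runs of that length lay on chromosome X and were not included.

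The array carried 3 livers of Mdr2-KO males and 3 livers of Mdr2-/+ males, with 1 array for each mouse. Mdr2-KO mice were of the FVB.129P2-Abcb4tm1Bor strain, and the control heterozygotes came from crosses of these mice with FVB/NJ. All 6 mice were 12 months old and on the FVB background, and the controls carried 1 disrupted Mdr2 allele themselves. Methylated DNA immunoprecipitation (MeDIP) was done on DNA of the whole liver. Each array set the precipitated fraction, in Cy5, against total input DNA from that liver, in Cy3.

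CpG islands are stretches of DNA rich in CpG dinucleotides that often cover gene promoters and are mostly free of methylation in normal adult tissue. Methylation commonly differs between the body of an island and its flanks, which are called shores. Mdr2 (Abcb4) is the transporter that moves phosphatidylcholine into bile, and its loss causes chronic cholestatic inflammation of the liver followed by liver tumours. MeDIP enriches fragments that hold 5-methylcytosine, and it responds both to the share of methylated cytosines and to the density of CpGs under a probe. For this reason the levels of different probes are given below as a description only. In DNA of whole liver, a change in the share of cells that carry a methylated island and a change of methylation within the cells cannot be told apart.

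The 371 long islands held 6827 probes, of which 2226 were edge probes and 4601 were centre probes. They lay on 19 chromosomes. Each had 15 to 40 probes (median 17) and a length of 1520 to 5401 bp (median 2231 bp), counted from the start of the first probe to the end of the last. Starts of neighbouring probes were a median of 114 bp apart at the edge and 118 bp apart in the centre, so that the tiling was about as dense in both parts. The centre held 9 to 34 probes (median 11) against the 6 probes of the edge. Values are log2 ratios of MeDIP over input signal, centred on the median of each array, so that 0 is the level of the median probe.

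In the 6 livers, 77.3 to 87.2% of the edge probes and 77.2 to 86.5% of the centre probes gave MeDIP signals well above background. Precision is limited by the number of arrays. They came from 3 slides, 1 of which held replicate 1 of both genotypes. Replicates 2 and 3 of Mdr2-/+ lay together on another slide, and replicates 2 and 3 of Mdr2-KO on the last one. For these 4 livers slide and genotype cannot be told apart. Differences within the slide with both genotypes are therefore given beside the main counts and the called islands.

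Long islands had a higher MeDIP level at their edges than in their centres in both genotypes. The median edge level over the 371 islands was 0.03, -0.06 and -0.05 in the Mdr2-/+ livers and 0.10, 0.13 and 0.08 in the Mdr2-KO livers. The median centre level was -0.23, -0.25 and -0.25 in the Mdr2-/+ livers and -0.11, -0.07 and -0.15 in the Mdr2-KO livers. All 3 Mdr2-KO livers thus lay above all 3 control livers in both parts.

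The difference of edge minus centre within an island is called the step. Its median was 0.20 ± 0.04 (SD, n = 3) in Mdr2-/+ livers and 0.15 ± 0.05 (SD, n = 3) in Mdr2-KO livers, and the single livers overlapped between the genotypes. Over all 6 livers the median step was 0.18, which normexp correction lowered to 0.065 and the inclusion of runs of 12 to 14 probes to 0.095. The edge was above the centre in 219 to 237 of the 371 islands in each liver. In runs of 7 to 14 probes, split in the same way, the median step lay between -0.02 and 0.08 in the 6 livers.

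The level was lower towards the middle of the island, although not at every rank. In Mdr2-/+ livers the mean level was 0.22 at the outermost probe of either end, 0.14 at rank 3, 0.12 at rank 4, 0.0072 at rank 5, 0.03 at rank 7 and -0.10 at rank 8 and deeper. The Mdr2-KO livers had mean levels of 0.36, 0.35, 0.33, 0.24, 0.25 and 0.14 at the same ranks, with their highest value of 0.40 at rank 2. From rank 5 to rank 7 the mean level did not fall in either genotype. Ranks 3 and 4, between which the rule divides edge from centre, thus differed by less than ranks 4 and 5. The mean Mdr2-KO difference from the controls was 0.14 at the outermost probe, 0.20 at rank 2 and between 0.21 and 0.24 at all further ranks. The median difference over islands, in contrast, stayed between 0.09 and 0.14 at every rank. The outermost probe was also the dimmest, with 71.2% of its MeDIP signals well above background compared with 79.2 to 88.6% at the other ranks. The part of signal strength in its smaller mean difference was not tested.

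**Figure D1:**
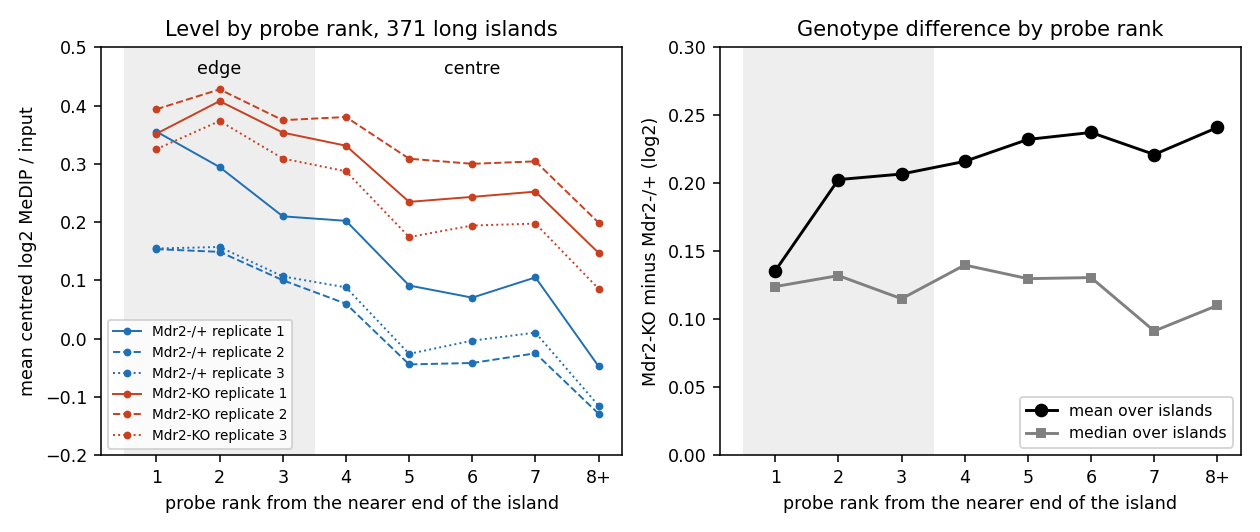
Mean centred log2 MeDIP/input ratio of the 371 long islands in each of the 6 livers (left, 1 line a liver) and the Mdr2-KO minus Mdr2-/+ difference as mean and median over islands (right), both by probe rank from the nearer end, with the edge shaded and rank 8 and deeper pooled. All 6 livers had a lower level at rank 8 and deeper than at rank 1, and the mean difference rose from 0.14 at rank 1 to 0.24 at rank 8 and deeper while the median stayed between 0.09 and 0.14.

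Not every island followed this average shape. In 158 islands the edge was above the centre in all 6 livers, in 78 the centre was above the edge in all 6, and 135 were mixed. In the 158 islands with higher edges, the median level over the livers was 0.34 at the edge and -0.30 in the centre. In the 78 islands with higher centres, it was -0.47 at the edge and 0.16 in the centre. The control step exceeded 1 in 33 islands and was below -1 in 15.

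The island with the highest control step lay at chr4:153478508-153481908 (all positions are of the mouse genome build mm8) and had 25 probes. Its edge level was 3.02, 2.12 and 2.19 in the control livers and 2.69, 2.37 and 2.35 in the Mdr2-KO livers. Its centre level was 0.94, 0.65 and 0.57 in the controls and 1.18, 1.25 and 1.02 in Mdr2-KO. The high edge level came from the first end, where the mean of 3 probes over the 6 livers was 3.95, compared with 0.96 at the last end. The genotypes overlapped at the edge and not in the centre. Neither part passed the main test of genotype (limma adjusted p = 0.97 at the edge and 0.142 in the centre). The centre was called higher under some of the alternative settings given at the end.

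The lowest control step belonged to an island of 19 probes at chr7:118280845-118283110. Its centre reached 4.29, 3.27 and 3.31 in the control livers and 4.21, 4.51 and 4.10 in the Mdr2-KO livers, whereas its edge stood at 2.19, 1.82 and 1.81 in the controls and at 2.13, 2.20 and 2.29 in Mdr2-KO. This island was also lopsided, with a mean level of 4.63 at the first end and -0.48 at the last. The control and Mdr2-KO livers overlapped in both parts.

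The opposite ends of an island were only loosely alike over the whole set. The levels of the first and the last end had a Pearson correlation of 0.31 over the 371 islands. That of edge and centre was 0.87, but it joins means of more probes from adjoining stretches, so the values are not like for like. These are descriptions across islands, which share livers and arrays and are not independent replicates.

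Methylation of long islands was then compared between genotypes, to see whether chronic liver inflammation goes with changed levels at the edge, in the centre or in both. All edges and centres of long islands that passed the test were higher in the Mdr2-KO liver. The edge was higher in 32 of the 371 long islands, which is 8.63%, and the centre was higher in 46, which is 12.4% (limma, Benjamini-Hochberg adjusted p under 0.05 over all 18511 segments of the array). A segment is an edge, a centre, or a whole run of 3 to 6 probes. Of all these segments 4.67% were called higher. In runs of 7 to 14 probes, 4.37% of the edges and 6.25% of the centres were called higher.

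No edge and no centre of a long island was called lower by limma, against 0.259% of all segments. At an unadjusted p under 0.05, limma had 96 edges higher and 11 lower, and 116 centres higher and 14 lower, against 14.7% of all segments higher and 5.64% lower. With the methods' t-test, 81 edges and 97 centres were higher and 15 edges and 33 centres lower without adjustment, against 11.7% of all segments higher and 6.15% lower. After adjustment that test called no edge and no centre higher and 1 edge lower, with 5 of all segments higher and 2 lower. The standard error of the difference had a median of 0.15 at the edge and 0.14 in the centre. In the shorter runs these medians were 0.15 and 0.16, and no test of long against short runs was made.

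The calls depended on which signals were used and how their background was treated. The normexp setting started from the median spot signals with an offset of 50, without the dye normalization of the processed signals. The parts of these changes were not tested apart. After normexp correction of the signals, no segment of the array was called by limma, in long islands or elsewhere. At an unadjusted p under 0.05, 82 edges and 96 centres were then higher, against 15% of all segments. With slide as a fixed block, which leaves the comparison to the 1 pair of livers on a shared slide, no edge and no centre of a long island was called higher, and 6 of all 18511 segments were. At an unadjusted p under 0.05, 42 edges and 47 centres were higher in that fit, and 14 edges and 8 centres were lower. Of all segments 6.67% were then higher and 6.73% lower, so gains did not exceed losses over the whole array. Within the slide that held both genotypes, all 32 called edges were higher in the Mdr2-KO liver, by 0.30 to 1.46 (median 0.76). All 46 called centres were higher there too, by 0.46 to 2.14 (median 0.86). These directions were fixed in advance and are no separate support. The pair took part in the calls, and no called part had overlapping livers. Only the sizes of these differences are informative.

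**Figure D2:**
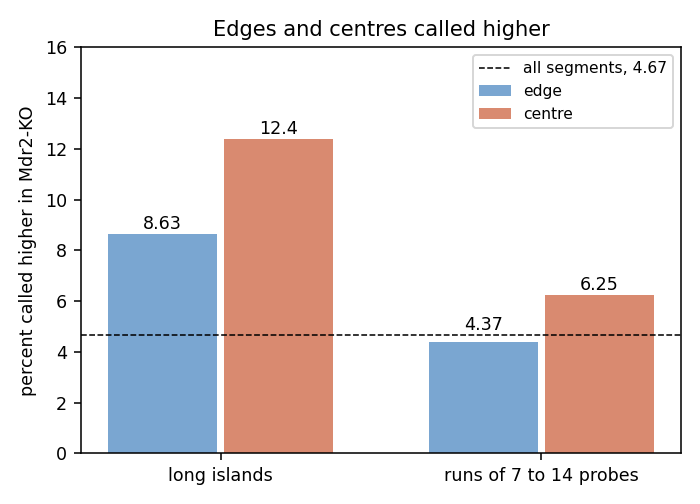
Percent of edges and of centres called higher in Mdr2-KO (limma adjusted p under 0.05) among the 371 long islands and among runs of 7 to 14 probes, with the share of all segments of the array as a dashed line. Long islands had 8.63% of edges and 12.4% of centres called, the shorter runs 4.37% and 6.25%, and all segments 4.67%.

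The differences of the called edges ranged from 0.54 to 1.72 (median 0.94) and those of the called centres from 0.61 to 2.41 (median 1.00), on the log2 scale. The input signal differed little there, with a median Mdr2-KO minus Mdr2-/+ difference of -0.03 at the called edges and -0.01 at the called centres. The lowest value at a called edge was -0.45, which was also the lowest among all 371 edges, in an island of 15 probes at chr4:124160451-124162583 that was picked for this value. There the edge ratio differed by 1.09 and the MeDIP signal alone by 0.58. Over the called parts the MeDIP signal had medians of 0.81 and 0.92 at edges and centres. Among the 3 Mdr2-KO livers, replicate 2 had the highest level in 23 of the 32 called edges and in 40 of the 46 called centres. Without that liver, 10 edges and 17 centres were called higher. Leaving out Mdr2-/+ replicate 2 left 3 edges and 11 centres, leaving out Mdr2-/+ replicate 3 left 1 and 12, and leaving out Mdr2-KO replicate 1 left 2 and 5. Without Mdr2-/+ replicate 1, by contrast, 90 edges and 94 centres were called. Leaving out replicate 1 of either genotype left no slide with both, so slide and genotype could not be told apart in those fits. Calls over the whole array fell and rose with the same livers, to 1.44% of all segments higher without Mdr2-KO replicate 2, 0.773% and 0.632% without Mdr2-/+ replicates 2 and 3, 0.367% without Mdr2-KO replicate 1 and 16.4% without Mdr2-/+ replicate 1.

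Over all 371 islands the median difference was 0.09 at the edge and 0.09 in the centre, compared with -0.01 at both parts of the shorter runs and 0.01 over all segments. Quantile normalization brought the medians of the long islands to 0.02 and 0.01, and within the slide with both genotypes they were 0.06 and 0.07. The groups did not overlap and Mdr2-KO was higher at 106 edges (28.6%) and 127 centres (34.2%), against 16.2% of all segments. They did not overlap in the opposite direction at 28 edges (7.55%) and 47 centres (12.7%), against 10.4%. Single probes had the same order. Of the edge probes 3.73% and of the centre probes 6.18% were called higher by limma over all 88646 usable probes, against 1.89% of all of them. No edge probe and 10 centre probes (0.217%) were called lower, against 0.122% of all probes.

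Islands next to the limit of 15 probes were set side by side. The 89 islands of 15 probes had a median level of 0.14 at the edge and 0.01 in the centre, with 9 edges and 12 centres called higher. The 99 runs of 14 probes had -0.16 at the edge and -0.27 in the centre, with 3 edges and 8 centres called higher. Among the long islands themselves, 10.8% of centres were called in those of 15 to 19 probes, 15.3% in those of 20 to 24 and 20.6% in the 34 islands of 25 or more. For the edge these shares were 7.55%, 13.6% and 8.82%. The number of probes averaged in the centre grows with the length of the island, and its part in these shares was not tested. With the centre limited to the middle 6 probes of each island, 45 centres were called higher.

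The called islands were unevenly spread over the chromosomes, with no test of this. Chromosome 14 had 6 called edges and 5 called centres among 20 long islands, and chromosome 12 had 4 and 6 among 21. On chromosome 11, which had 35 long islands, no edge and 1 centre was called. Of the 46 islands whose centre level over the 6 livers exceeded 1, 14 edges and 16 centres were called. Among the 309 with a centre level between -1 and 1, 18 edges and 30 centres were called, and none among the 16 below -1. These levels come from the same livers as the differences and include Mdr2-KO, so a gain in Mdr2-KO itself moves an island into the higher class. Centres above 1 numbered 37, 29 and 31 in the Mdr2-/+ livers and 60, 75 and 54 in the Mdr2-KO livers. The counts by level are therefore no evidence that gains go with level.

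Edge and centre were called together in 22 islands. In these islands the median difference was 1.01 at the edge and 1.29 in the centre. The centre difference was the larger in 18 of the 22, and in 204 of all 371 long islands. This order depended on normalization in the islands called in both parts that are described below. Their step differences ranged from -0.999 to -0.18 in the main fit. With loess normalization they were 0.44, 0.04, -0.03, -0.12 and 0.05, where a positive value means a larger edge difference. The median control level of the 22 islands was 0.29 at the edge and 0.31 in the centre, with single islands between -1.12 and 1.54 at the edge. The difference of edge and that of centre had the same sign in 286 of the 371 islands, with a Pearson correlation of 0.75 as a description.

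**Figure D3:**
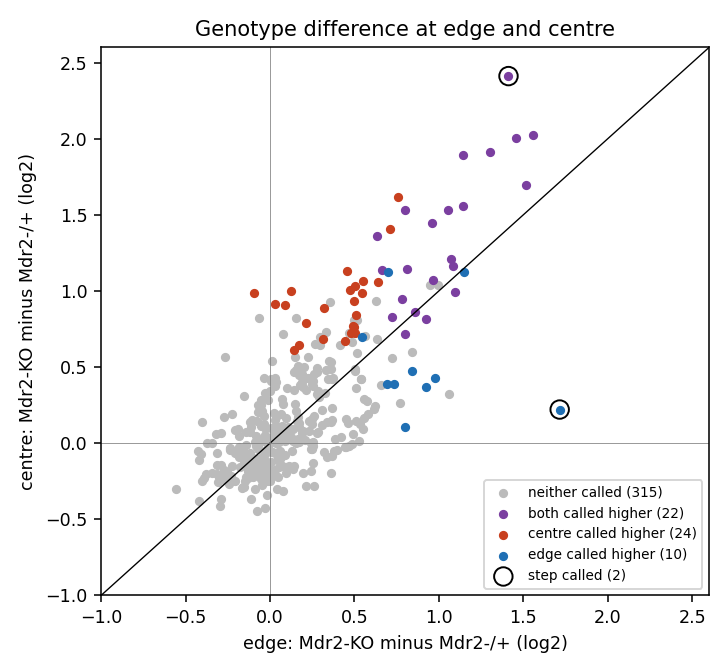
Mdr2-KO minus Mdr2-/+ difference (log2) at the edge (horizontal) and in the centre (vertical) of each of the 371 long islands, coloured by which part was called higher, with rings around the 2 islands whose step was called and a line of equal difference. The 22 islands called in both parts reach 1.56 at the edge and 2.41 in the centre, and no called island lies below 0 at its called part.

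The centre difference largest of all was found in an island of 17 probes at chr12:56516860-56518990. Its centre level was 0.28, -0.02 and 0.08 in the Mdr2-/+ livers and 2.42, 3.14 and 2.02 in the Mdr2-KO livers. Its edge level was 0.36, 0.11 and 0.14 in the controls and 1.57, 2.09 and 1.19 in Mdr2-KO. The difference was 2.41 ± 0.26 (SE) in the centre and 1.41 ± 0.22 at the edge (limma adjusted p = 0.00648 and 0.0144). The controls thus had the same level in both parts to within 0.12, and the Mdr2-KO livers stood above them without overlap, at all 6 edge probes and at 10 of the 11 centre probes.

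The remaining centre probe of this island lay at -169 bp from its middle. It stood at 2.42, 2.03 and 1.77 in the control livers, where the probe before it was below 0, and at 2.49, 2.68 and 2.17 in Mdr2-KO. The highest Mdr2-KO levels of the island were at the 3 probes from 166 to 376 bp after the middle, where replicate 2 reached 3.78, 3.75 and 3.62 and every control was below -0.2.

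An island of 15 probes at chr8:124002133-124004262 had the smallest standard errors among the called parts of the named islands. Its edge level was 0.30, 0.02 and 0.23 in the controls and 1.59, 1.85 and 1.49 in Mdr2-KO, a difference of 1.46 ± 0.15 (SE). In its centre the controls had 0.34, 0.17 and 0.27 and the Mdr2-KO livers 2.22, 2.71 and 1.87, a difference of 2.01 ± 0.21. Both passed the test (limma adjusted p = 0.00484 and 0.00553). All 15 probes were higher in every Mdr2-KO liver than in any control liver.

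On chromosome 4, the island at chr4:46364420-46366682 with 15 probes had a centre above its edge already in the controls. The control livers had 1.05, 0.49 and 0.62 in the centre and 0.29, -0.08 and -0.03 at the edge, and the Mdr2-KO livers 2.73, 3.20 and 2.29 in the centre and 1.66, 2.02 and 1.17 at the edge. The difference was 2.02 ± 0.25 (SE) in the centre and 1.56 ± 0.22 at the edge (limma adjusted p = 0.00722 and 0.0114). A second island of this chromosome, chr4:99148017-99150141 with 16 probes, was below the array median in every control, at -0.22, -0.30 and -0.19 in the centre and -0.43, -0.30 and -0.19 at the edge. In Mdr2-KO the centre reached 1.55, 2.39 and 1.08 and the edge 0.74, 1.45 and 0.80. The difference was 1.91 ± 0.29 in the centre and 1.31 ± 0.20 at the edge (limma adjusted p = 0.014 in both parts).

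The island of 21 probes at chr14:83253910-83256134 had the smallest step difference of these 5 islands called in both parts. Its edge level moved from -0.67, -0.51 and -0.22 in the controls to 0.79, 1.57 and 0.78 in Mdr2-KO, and its centre level from 0.83, 0.33 and 0.51 to 2.18, 2.69 and 1.90. The differences were 1.52 ± 0.23 (SE) at the edge and 1.70 ± 0.22 in the centre (limma adjusted p = 0.0143 and 0.00871). Its step differed by -0.18 between the genotypes, with overlapping livers.

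Within the slide with both genotypes, these 5 islands differed by 1.17 to 1.46 at the edge and by 1.35 to 2.14 in the centre. The direction was again fixed by the lack of overlap, and the islands were chosen for large differences in a fit that holds this pair. With normexp correction their edge differences shrank to 0.47 to 0.62 and their centre differences to 0.90 to 1.90, and none was called (limma adjusted p from 0.074 to 0.169). With loess normalization all were still called, with differences of 0.999 to 1.25 at the edge and 0.80 to 1.28 in the centre.

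**Figure D4:**
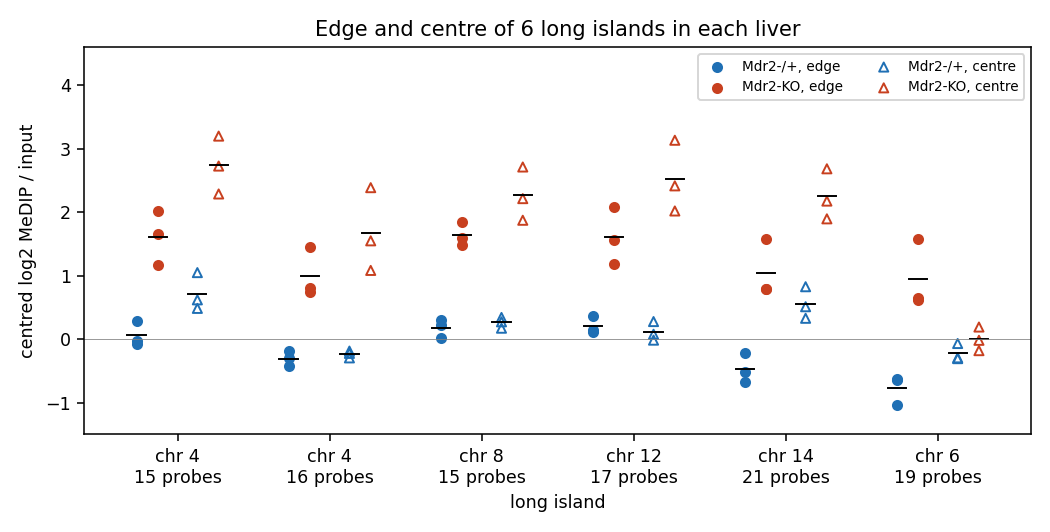
Mean level (centred log2 MeDIP/input) of the edge (filled circles) and the centre (open triangles) of 6 long islands in each liver, with Mdr2-/+ in blue, Mdr2-KO in red and a bar at the mean of 3 livers. In the first 5 islands both parts separate the genotypes, while in the island on chromosome 6 the edges separate and the centres overlap.

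The island with the most probes showed no gain. It had 40 probes over 5401 bp at chr11:120048885-120054285. Its differences were -0.21 at the edge and -0.25 in the centre, and neither passed the test (limma adjusted p = 0.415 and 0.283), although the livers did not overlap in either part. Of its 34 centre probes, 12 were lower in every Mdr2-KO liver than in any control liver and 1 was higher.

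Islands that were called in one part and not in the other were examined with a test of the step itself, since a part that passes beside one that does not is no evidence of a difference between them. The centre was called without the edge in 24 islands and the edge without the centre in 10. In the first class, the median difference was 0.91 in the centre and 0.47 at the edge. The edge difference was above 0 in 23 of these 24 islands, and the livers did not overlap at the edge in 14. In the second class the medians were 0.82 at the edge and 0.41 in the centre, the centre difference was above 0 in all 10, and the centre livers did not overlap in 7. Mdr2-KO was higher without overlap at 28.6% of all long-island edges, 34.2% of centres and 16.2% of all segments. In the 315 islands called in neither part, 185 edge and 171 centre differences were above 0. Choosing islands by a gain in 1 part favours gains in the other, since the 2 differences were correlated.

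The step differed between genotypes in 2 of the 371 long islands, with 1 in each direction (0.27% each, limma adjusted p under 0.05 over the 4685 runs of 7 or more probes). Among all these runs, 0.149% had a step called higher in Mdr2-KO, that is a more positive difference at the edge than in the centre, and 0.406% had a step called lower. At an unadjusted p under 0.05, the step was higher in 26 long islands (6.02% of all runs of 7 or more probes were) and lower in 45 (8.92%). The livers did not overlap and the step was lower in 69 long islands, or 18.6%, against 12.6% of all these runs, and it was higher in 44, or 11.9%, against 9.11%. All 24 islands called in the centre alone had a lower step in Mdr2-KO (median -0.49), and 18 of them without overlap of the livers. The choice of this class favours that sign. None of the 24 passed the test of the step, and the smallest limma adjusted p among them was 0.0573.

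Only the island of 19 probes at chr6:23197441-23199860 was called at the edge, not in the centre, and also in the step. Its edge level was -0.64, -1.03 and -0.62 in the Mdr2-/+ livers and 0.65, 1.58 and 0.62 in the Mdr2-KO livers, the largest edge difference of all long islands at 1.72 ± 0.26 (SE). Its centre level was -0.29, -0.31 and -0.07 in the controls and -0.18, 0.19 and -0.02 in Mdr2-KO, where the livers overlapped and the difference was 0.22 ± 0.14. The step went from -0.35, -0.72 and -0.55 to 0.83, 1.39 and 0.63. Its difference was 1.49 ± 0.21 (limma adjusted p = 0.0268), with adjusted p = 0.0143 at the edge and 0.449 in the centre.

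The gain of this island was not symmetrical. The first end was higher by 2.46 and the last end by 0.97. Probes 4 and 5, which count as centre, were also higher in every Mdr2-KO liver, with 0.82, 1.72 and 0.64 at probe 5 against -1.31, -1.17 and -1.12 in the controls. Of the other centre probes, 2 near the last end were also higher without overlap. The probe at -36 bp from the middle was lower in Mdr2-KO, at -0.38, -1.05 and -0.98 against 1.13, 0.34 and 0.51. Gains without overlap thus ran over the first 5 probes. Signals in its centre were weak, with 51.3% of MeDIP signals well above background there and 77.8% at the edge. After normexp correction the edge difference was 0.19 and the step difference 0.22, and neither was called (limma adjusted p = 0.561 and 0.392).

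The other called step was that of the chromosome 12 island described above, where both parts gained and the centre gained more. Its step was 0.09, 0.12 and 0.07 in the Mdr2-/+ livers and -0.85, -1.05 and -0.83 in the Mdr2-KO livers, a difference of -0.999 ± 0.136 (SE, limma adjusted p = 0.0268). Loess normalization, which removes trends of the ratio with signal within an array, left a difference of -0.12 (limma adjusted p = 0.786). Over 23 alternative settings on the log2 scale, this step was called in 12 and that of the chromosome 6 island in 11. The settings of 12 or more and of 20 or more probes only change which islands are listed. They repeat the main test of these steps, and both islands have fewer than 20 probes. Keeping outlier spots also left the called differences of the named islands unchanged. The calls under these settings are no separate support. Apart from the fit with slide as a fixed block, the limma adjusted p reached 0.786 (loess) on chromosome 12 and 0.392 (normexp) on chromosome 6. Leaving out any 1 of the 6 livers ended both calls, with differences of 1.28 to 1.65 on chromosome 6 and -1.04 to -0.93 on chromosome 12 and limma adjusted p from 0.053 to 0.149. Within the slide with both genotypes the step differed by 1.18 on chromosome 6 and by -0.93 on chromosome 12. These directions too were fixed, since the steps did not overlap between genotypes, and the sizes belong to steps chosen by the main test.

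**Figure D5:**
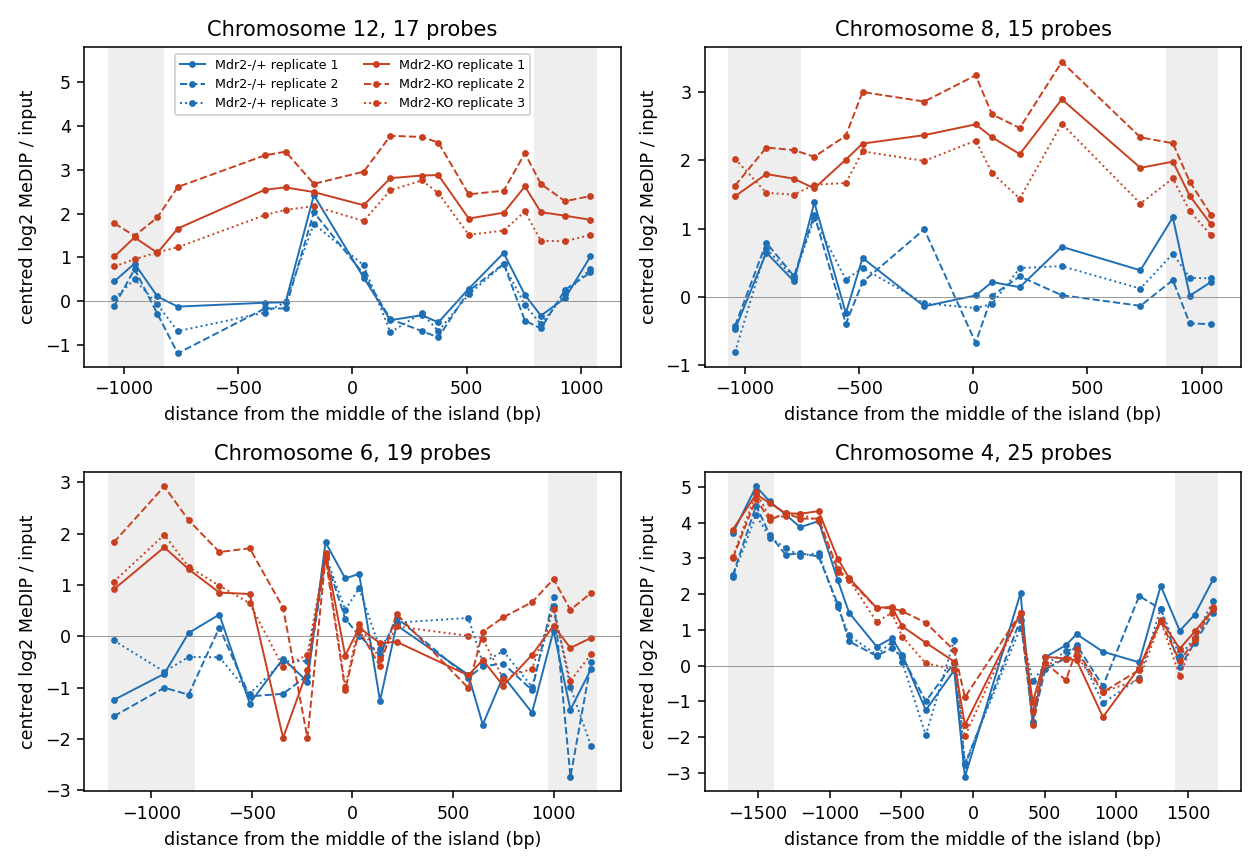
Centred log2 MeDIP/input ratio of every probe of 4 long islands in each liver, by distance from the middle of the island in bp, with the edges shaded, Mdr2-/+ in blue and Mdr2-KO in red. The islands on chromosomes 12 and 8 gained along nearly their whole length, that on chromosome 6 at its first 5 probes and less at its last end, and that on chromosome 4 was high at its first end in both genotypes.

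Among the 24 islands called in the centre alone, 1 had a mean edge difference below 0. It was singled out after its values were seen. This island had 33 probes at chr5:111656748-111660873, and its edge level was 2.91, 1.92 and 1.84 in the controls and 2.37, 2.08 and 1.94 in Mdr2-KO. Its centre level was 2.55, 1.95 and 2.06 in the controls and 3.18, 3.21 and 3.12 in Mdr2-KO. The difference was -0.09 ± 0.28 (SE) at the edge and 0.98 ± 0.17 in the centre (limma adjusted p = 0.90 and 0.02), and the step difference of -1.08 ± 0.19 missed the threshold (limma adjusted p = 0.0573). The high edge level came from its last end, whose mean over the 6 livers was 5.13, compared with -0.77 at the first end. The difference was 0.18 at the last end and -0.37 at the first, and 4 of the 6 edge probes had a difference above 0.

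Taking whole islands instead of parts gave 42 called higher, which is 11.3%, and none lower by limma, with 11 lower at an unadjusted p under 0.05. Of all runs of 3 or more probes 4.28% were called higher, 0.217% were called lower, and 5.5% were lower at an unadjusted p under 0.05. Of these 42 islands, 41 were also called in a part. The exception was an island of 19 probes at chr12:27927488-27929786, with differences of 0.63 at the edge and 0.69 in the centre and adjusted p = 0.0545 and 0.0541 in the limma fit. In the other direction, 15 islands were called in a part and not over the whole run. The islands on chromosomes 6 and 5 described above were among these 15, with whole-island differences of 0.69 and 0.79 (limma adjusted p = 0.0601 and 0.0533).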

How the data were processed

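DNA of 6 livers was hybridised to Agilent 2-colour mouse CpG island arrays designed on mm8. The authors deposited scanner output in which Agilent Feature Extraction (version 8.5.1.1 in the submitters' notes, 10.5.1.1 per the file headers) had subtracted background and normalized the dyes. These deposited intensities were not normalized between arrays. The deposited log10 ratio per spot was used only to check the direction of Cy5 over Cy3. The authors' table of normalized values, a score per probe whose computation is given by reference only, served as an alternative.

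Of 94687 features, 5950 controls were left out, and 88311 of the remaining 88737 probes had a position. Spots flagged as outliers on any array (91 probes, 3 of them in long islands) did not enter the means. The log2 ratio of processed signals was centred on the median of each array. Means were taken over the probes of a part and tested with limma 3.58.1 in R 4.3.3, Mdr2-KO against Mdr2-/+, two-sided and without covariates, with Benjamini-Hochberg adjustment over the whole table and a threshold of 0.05. Steps were tested over runs of 7 or more probes and whole islands over runs of 3 or more. P-values rest on the spread between 3 mice per genotype, which limma moderates over the whole table. Array and slide are part of this spread, and slide also enters the genotype difference.

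Named islands were the 4 with the largest positive and negative difference at the edge and in the centre among those called without overlap, those called in the step, the one with the most probes, and those with the highest and lowest control step. The members, lists and tests were chosen with earlier results of these data known. The fits were tested on simulated data with known changes and no slide effect. Of 100 segments changed by 1 on the log2 scale 60 were recovered, and of 100 changed by 2, 92. For steps these numbers were 69 and 97. There were 3 false calls among segments and 7 among steps. The files used here pair no probe with a gene, so islands are named by position. Alternatives covered background correction, normalization, the deposited scores, outlier and dim spots, the width of edge and centre, run length and distance, medians, blocks, weights, the t-test of the methods, and each liver left out.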

Additional observations from a re-analysis of the deposited data

How the results depend on the processing

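Gains exceeded losses at edges and centres wherever limma made calls, but the counts moved with the settings. The numbers that follow are long islands called higher unless stated. Normexp gave 0 edges, 0 centres, 0 whole islands and 0 steps higher, with median differences of 0.14 and 0.15 and a median step level of 0.065 in place of 0.18. Loess gave 16 edges, 27 centres and 0 steps in either direction, with 1 edge lower and a median centre difference of 0.056, and all 16 and all 27 were among the original calls. With loess, 2.48% of all segments were higher and 0.162% lower. Quantile normalization called 3 edges, 3 centres, 2 steps and 2 whole islands lower, with median differences of 0.018 and 0.014. It called 6.37% of all segments higher and 1.98% lower, with 22 of 4685 steps and 380 of 13815 whole runs lower. Dividing by the SD of each array gave 57 edges (1 lower) and 75 whole islands, against 8.46% of all segments (0.837% lower) and 1270 of 13815 whole runs. The deposited scores gave 67 edges (3 lower), 81 centres (2 lower), 97 whole islands (4 lower), and 3 steps higher and 8 lower. With these scores 9.43% of all segments were higher and 2.14% lower. As whole runs, 1390 of 10525 were higher and 317 lower, and of 4209 steps 19 were higher and 49 lower. Bright probes alone gave 65 whole islands, 3 steps higher and 6 lower, and a median edge difference of 0.15. Among all runs, 811 of 12257 were then higher as a whole, and of 4516 steps 22 were higher and 49 lower.

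Edges of 2 probes gave 2 edges lower, against 0.238% of all segments, and a median step level of 0.12. Edges of 4 probes gave 2 steps higher and 15 lower, and the middle 6 probes as centre gave 2 and 12, with 1 centre lower. Among all runs with a step, these settings gave 9 higher and 47 lower of 2321, and 8 and 31 of 4685. With the middle 6 probes, 0.254% of all segments were lower. Starts within 300 bp left 240 islands, with 23 edges (9.58%), 37 centres (15.4%) and 0 steps, against 4.98% of all segments higher. Runs of 12 or more probes, 857 in all, gave 58 edges (6.77%), 90 centres, 77 whole islands, 2 steps higher and 4 lower, with a median centre difference of 0.047 and a median step level of 0.095. Runs of 20 or more, 93 in all, gave 11 edges (11.8%), 16 centres (17.2%), 16 whole islands and 0 steps, with medians of 0.14 at both parts. For both lengths the shares called higher stayed at 4.67% of all segments and 4.28% of all whole runs. Medians over probes gave 21 edges and 27 whole islands, 1 centre and 5 steps lower, and a median centre difference of 0.057. With medians, 3.91% of all segments were higher and 0.265% lower. As whole runs 462 of 13815 were higher, and 18 of 4685 steps were lower.

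Slide as a fixed block left 0 calls of any kind in long islands, and as a random block 28 edges and 37 centres. Over the whole array the random block called 3.79% of segments higher. Array weights gave 98 edges (7 lower), 100 centres (7 lower), 115 whole islands (9 lower) and 5 steps lower, with a median edge difference of 0.13. With weights, 16.1% of all segments were higher and 3.44% lower. As whole runs 2563 of 13815 were higher and 568 lower, and 29 of 4685 steps were lower. The methods' t-test gave 81 edges (15 lower), 97 centres (33 lower), 93 whole islands (27 lower), and 27 steps higher and 46 lower without adjustment, and only 1 edge lower and 0 of all others after it. Without adjustment, 11.7% of all segments were higher and 6.15% lower. As whole runs 1596 of 13815 were higher and 841 lower, and of 4685 steps 244 were higher and 377 lower. Leaving out 1 liver gave 1 to 90 edges (0 to 3 lower), 5 to 94 centres (0 to 2 lower), 2 to 106 whole islands (0 to 3 lower) and 0 steps, with median differences of 0.081 to 0.16 at the edge, 0.057 to 0.12 in the centre and -0.05 to -0.02 for the step. Over these fits 0.367 to 16.4% of all segments were called higher. The cause of these shifts was not tested.

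The deviations of livers with the same replicate number had correlations of 0.11, -0.08 and 0.11, and pairing was not tested. Replicate 1 of both genotypes shared a slide. The main fit did not pair livers by number. The replicate block gave 25 edges and 42 centres, and 0 steps in either direction, against 4.02% of all segments called higher.

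Of the named islands, no called difference changed sign under the settings on the log2 scale, but 17 of 18 called differences were lost with normexp, and values fell to as little as 0.113 of the original with normexp and 0.116 with loess. Differences that were not called changed sign 25 times, in 7 islands. For the step of the chromosome 4 islands at 46364420 and 99148017, loess gave 0.44 and 0.040, and starts within 300 bp gave 0.19 for the first. The edge of the chromosome 4 island at 153478508 became -0.055 with loess, -0.20 with quantile normalization, and -0.0066 and -0.33 with slide as a random and a fixed block, and it ranged from -0.13 to 0.31 with 1 liver left out. The centre of the chromosome 6 island became -0.028 with normexp and -0.37 with the middle 6 probes. The chromosome 7 island had a step of 0.11 with starts within 300 bp, and -0.059 at the edge, -0.076 in the centre, -0.071 over the whole and 0.017 for the step with slide as a fixed block. The step of the chromosome 11 island became -0.089 with normexp, -0.11 with edges of 4 probes and -0.038 with medians, and it ranged from -0.041 to 0.11 with 1 liver left out. The step of the chromosome 14 island became 0.049 with loess, 0.11 with edges of 2 probes, 0.021 with medians and 0.11 with slide as a fixed block. Other settings also added limma calls. The centre at chr4:153478508 was called with the middle 6 probes (0.87), starts within 300 bp (0.94) and array weights (0.53). Array weights called the chromosome 7 centre (0.86), and leaving out Mdr2-/+ replicate 1 called both centres. The whole chromosome 6 island was called with loess (0.64), quantile normalization (0.63) and bright probes (1.11), among others.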
